A study of Mus musculus with 15 samples.

Results

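The 38 genes described here encode enzymes and carriers of fatty acid oxidation and branched-chain amino acid breakdown, among 27907 genes measured in mouse ovaries. Most act in mitochondria, while Fabp3 is cytosolic and Acaa1a peroxisomal. The 38 genes were taken from the deposited table by gene symbol, and all 38 were found, with Mmut listed under its older symbol Mut. Of these, 21 belong to fatty acid uptake and β-oxidation, 13 to the catabolism of leucine, isoleucine and valine, and 4 to the propionate steps. Ovarian RNA came from 7 HSD17B1-KI and 8 wild-type (WT) females, each with its own library. HSD17B1-KI mice are homozygous for a Ser143Ala point mutation of Hsd17b1, made with CRISPR/Cas9, which changes the catalytic serine of the enzyme that reduces estrone to estradiol. WT controls came from crosses of heterozygous parents, as did the mutants. All females were 6 months old, in estrus and fed a soy-free diet. The mutation is carried in every tissue, and a count of reads per gene does not show it. Hsd17b1 itself was between 5459 and 17386 normalized counts in HSD17B1-KI and between 6479.7 and 14111 in WT (log2 fold change 0.36, limma-trend adjusted p = 0.666).

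In β-oxidation, fatty acids are carried into mitochondria as carnitine esters and shortened by repeated cycles of dehydrogenation, hydration, a further dehydrogenation and thiolysis, each releasing acetyl-CoA. Branched-chain amino acids are first transaminated and decarboxylated, and their products then pass through acyl-CoA dehydrogenases and hydratases of the same kind. Leucine breakdown also uses a carboxylase. Propionyl-CoA, an end product of valine and isoleucine, enters the citric acid cycle as succinyl-CoA. Steroid-producing cells of the ovary hold many mitochondria, where the first step of steroid synthesis takes place.

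HSD17B1-KI libraries held 39092867 to 69972608 reads assigned to genes, and WT libraries 26544745 to 72362981. A normalized count is the reads of a gene divided by the size factor of its library. The genotypes were compared with limma-trend, two-sided, on log2(normalized count + 1) for the 21525 genes whose normalized counts averaged 2 or more, a filter that all 38 members passed. A gene is called DE at a Benjamini-Hochberg adjusted p under 0.05 over all these genes. Log2 fold changes are HSD17B1-KI over WT, and DESeq2 on the recovered whole reads is given as an alternative. Every member had between 772 and 21957 normalized counts in every mouse. Values after ± are SDs over the 7 and 8 mice unless given as an SE. Markers of tissue beside the ovary differed between libraries. The summed normalized counts of 10 oviduct genes ranged from 436 to 27498 in HSD17B1-KI and 459.8 to 238003 in WT, highest in WT 1 and WT 8, and those of 10 adipocyte genes from 8539.8 to 19400.1 in HSD17B1-KI and 8743 to 52228 in WT, highest in WT 2.

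The genes of fatty acid oxidation, branched-chain catabolism and propionate breakdown were mostly higher in HSD17B1-KI ovaries, by small amounts. Of the 38 members, 37 had a positive log2 fold change, against 44.8% of all genes tested. Their median log2 fold change was 0.29, while that of all genes tested was -0.02. In limma-trend, 3 members rose past the threshold, which were Hadhb, the β subunit of the mitochondrial trifunctional protein, Mccc1, the biotin-carrying subunit of 3-methylcrotonyl-CoA carboxylase in leucine breakdown, and Pcca, the biotin-carrying subunit of propionyl-CoA carboxylase. None fell, and 0 were lower at an unadjusted p under 0.05.

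Those 3 of 38 compare with 0.209% of all genes tested that were DE and higher in HSD17B1-KI. With DESeq2, 20 members were DE and higher and 0 were lower, against 1.59% of the genes it tested that were higher. Of these 20, 12 stayed DE in all 15 DESeq2 fits that left out 1 mouse, and the other 8 (Acadl, Echs1, Etfb, Bckdha, Acadsb, Acad8, Pccb and Mut) in 6 to 14 of them. edgeR called 4 members, all higher, against 0.378% of the 17709 genes it tested that were higher. An unadjusted limma-trend p under 0.05 with a higher level in HSD17B1-KI was found for 29 members and for 5.36% of all genes tested. In 27 members all 7 HSD17B1-KI mice lay above the WT mean, as in 3.74% of all genes tested. In 5 members, Acadm, Acads, Hadhb, Eci2 and Pcca, every HSD17B1-KI mouse lay above every WT mouse, which held for 0.274% of all genes tested. The members were chosen with earlier results of these mice known, and the study itself grouped genes of these pathways from the same libraries, so these counts are not independent evidence of their direction. In whole ovaries, a larger share of cells that express these genes and more RNA per cell cannot be told apart.

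**Figure D1:**
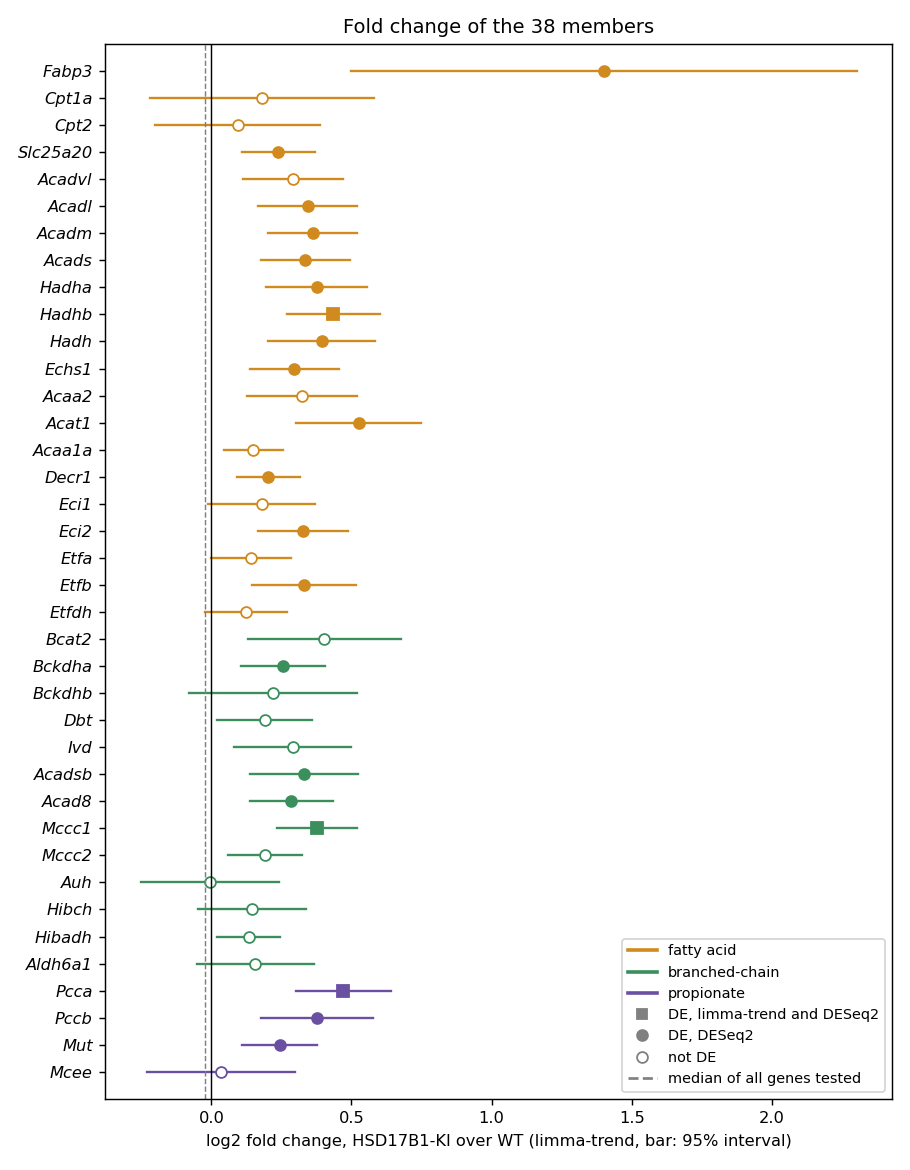
Log2 fold change of each of the 38 members, HSD17B1-KI over WT on log2(normalized count + 1), with its 95% interval from limma-trend as a horizontal bar. Squares mark the 3 members that were DE with both limma-trend and DESeq2, filled circles those DE with DESeq2 alone and open circles the rest, and 37 of 38 lie to the right of 0, with Fabp3 farthest at 1.40 and Auh at -0.00.

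The DNA in front of the 3 genes that rose, and of Acadm, is shown because Hadhb shares its start region with another member and Acadm holds both motifs that were found in the members. Hadha and Hadhb, which encode both subunits of one enzyme, lie head to head on chromosome 5 (Hadha chr5:30118304-30155162, minus strand; Hadhb chr5:30155248-30184593, plus strand; GRCm38), with 85 bases between their starts. The next closest pair of members, Acat1 and Etfa, has starts 1901860 bases apart. The sequences are RefSeq's for GRCm38.p6, written 5′ to 3′ on the strand named. The first runs between the starts of Hadha and Hadhb, and the others end just before the start of their gene. The capitals in Acadm mark the hexamer AGGTCA, here on the other strand as TGACCT, and the octamer GCATGCGC.
Hadha-Hadhb (chr5:30155163-30155247, plus strand): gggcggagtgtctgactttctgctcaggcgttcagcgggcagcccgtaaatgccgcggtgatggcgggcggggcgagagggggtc
Pcca (chr14:122534078-122534323, plus strand): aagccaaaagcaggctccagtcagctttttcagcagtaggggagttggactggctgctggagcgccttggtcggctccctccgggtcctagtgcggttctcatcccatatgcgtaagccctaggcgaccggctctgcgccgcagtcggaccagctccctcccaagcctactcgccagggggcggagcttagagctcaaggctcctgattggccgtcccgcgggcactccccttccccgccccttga
Mccc1 (chr3:36000679-36000928, minus strand): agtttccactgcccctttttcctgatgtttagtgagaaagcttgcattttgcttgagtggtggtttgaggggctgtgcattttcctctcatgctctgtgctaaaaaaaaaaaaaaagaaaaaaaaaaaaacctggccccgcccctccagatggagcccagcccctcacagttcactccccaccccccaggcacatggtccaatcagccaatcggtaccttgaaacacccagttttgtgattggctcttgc
Acadm (chr3:153944644-153944893, minus strand): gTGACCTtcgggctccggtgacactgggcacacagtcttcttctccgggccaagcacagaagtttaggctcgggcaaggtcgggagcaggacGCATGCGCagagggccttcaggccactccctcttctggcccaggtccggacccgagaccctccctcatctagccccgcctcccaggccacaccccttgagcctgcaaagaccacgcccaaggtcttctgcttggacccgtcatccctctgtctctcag

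RefSeq promoter windows of 250 bases before and 50 after the start were given for 33 members, in 37 windows. They were not given for Acaa2, Acat1, Decr1, Dbt and Mut. The hexamer AGGTCA, a core site of many nuclear receptors, stood on either strand in 24.3% of the members' windows and in 16.3% of all 32851 windows. Its 8 members were Acadm, Acadvl, Aldh6a1, Bckdhb, Cpt1a, Echs1, Hibadh and Pcca, where the match in Pcca lies outside the run shown. The octamer GCATGCGC, part of the site of NRF1, stood in 10.8% of the members' windows (Acadm, Etfa, Etfdh and Pccb) and in 2.71% of all windows. No member window held TCAAGGTCA, which contains the hexamer, the hexamer repeated in the same direction 1 base apart, TGACGTCA or ACCGGAAG, found in 0.423%, 0.0396%, 1.79% and 2.30% of all windows. A match describes the letters in a window and not a bound site.

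Among the genes of uptake and the carnitine shuttle, Fabp3, a cytosolic fatty acid binding protein best known from heart muscle, had the largest log2 fold change of the 38 members. In HSD17B1-KI 1 to 7 it was 12444.6, 7771.8, 4216.8, 1850.3, 1112.6, 4762.2 and 3475.6 normalized counts. In WT 1 to 8 it was 1405.2, 1022.7, 1249.8, 2179.2, 1521.2, 772.1, 2532.8 and 1967.8 normalized counts. Of the 7 HSD17B1-KI mice, 5 lay above every WT mouse, while HSD17B1-KI 4 and 5 lay among the WT mice, so the groups overlapped. The means were 5091 ± 3896 normalized counts in HSD17B1-KI and 1581 ± 600.4 in WT (SD, n = 7 and 8). Its log2 fold change of 1.40 ± 0.43 (SE) had a limma-trend adjusted p of 0.221, with 0.00407 to 0.945 over the alternatives, and Fabp3 was DE with DESeq2 in all 15 fits that left out 1 mouse.

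Cpt1a and Cpt2, the outer and inner carnitine palmitoyltransferases, did not pass the test. Cpt1a, the step at which entry of fatty acids is controlled, was between 12280.5 and 21957 normalized counts in HSD17B1-KI, with a median of 13596, and between 9726 and 19517 in WT, with a median of 13375. Its groups overlapped nearly throughout, with HSD17B1-KI 4 and 5 highest and 5 of 7 HSD17B1-KI mice below the WT mean, and the 95% interval of its log2 fold change was -0.22 to 0.58. That of Cpt2 was -0.20 to 0.39. Without the 7 libraries whose oviduct sum was above 10000, both fold changes turned negative, at -0.18 for Cpt1a and -0.05 for Cpt2, and that of Cpt2 was -0.02 with array weights. Slc25a20, the translocase that exchanges acylcarnitine for carnitine at the inner membrane, had 2433 ± 149.5 normalized counts in HSD17B1-KI and 2064 ± 167 in WT. Its log2 fold change was 0.24 ± 0.06 (SE), and it was DE with DESeq2 and not with limma-trend (adjusted p = 0.124).

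The 4 acyl-CoA dehydrogenases of straight chains differ in the length of chain they act on and had log2 fold changes from 0.29 to 0.36. Acadm, for medium chains, was between 8080.2 and 10924 normalized counts in HSD17B1-KI, with a median of 9192, and between 6416 and 8077 in WT, with a median of 7251. Its lowest HSD17B1-KI mouse, number 7, lay just above the highest WT mouse, number 3, so the groups touched without overlapping. Acads, for short chains, was between 4684 and 5357 normalized counts in HSD17B1-KI, with a median of 4952, and between 3204 and 4604 in WT, with a median of 3990.1, again with no overlap. The means of Acadm differed by 28.7% and those of Acads by 25.5%. Their limma-trend adjusted p-values were 0.0684 and 0.0849, above the threshold, with ranges over the alternatives of 0.00203 to 0.79 and 0.00595 to 0.745, and both were DE with DESeq2 without any 1 mouse. Acadl, for long chains, was DE with DESeq2 (log2 fold change 0.34), and Acadvl, for very long chains, was DE with neither test on all mice (log2 fold change 0.29).

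The 7 members of the hydratase, dehydrogenase and thiolase steps had a median log2 fold change of 0.38, and all 7 HSD17B1-KI mice lay above the WT mean in each of them. Hadhb, which carries the thiolase of the trifunctional protein, was between 8391 and 12058 normalized counts in HSD17B1-KI, with a median of 9299, and between 6161 and 8321 in WT, with a median of 7039.8. The groups did not overlap, and HSD17B1-KI 6 was the highest. The mean was 35.4% higher in HSD17B1-KI (9717 ± 1174 normalized counts in HSD17B1-KI and 7175 ± 680.1 in WT), with a log2 fold change of 0.43 ± 0.08 (SE) and a limma-trend adjusted p of 0.0355, which ranged from 0.000155 to 0.745 over the alternatives. Hadhb stayed DE in 5 of the 15 limma-trend fits without 1 mouse, those without HSD17B1-KI 5, 6 or 7 and WT 5 or 7, and lost the call without HSD17B1-KI 1, 2, 3 or 4 and WT 1, 2, 3, 4, 6 or 8. With DESeq2 it was DE in all 15. Its partner Hadha, which carries the hydratase and the hydroxyacyl dehydrogenase, had 18179 ± 1669.7 normalized counts in HSD17B1-KI and 14048 ± 1685 in WT and a log2 fold change of 0.38 (limma-trend adjusted p = 0.0878). Only HSD17B1-KI 5 lay below the highest WT mouse in Hadha.

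Acat1, the acetoacetyl-CoA thiolase that also ends isoleucine breakdown and turns over ketone bodies, had the largest difference after Fabp3. It was between 8402 and 14182 normalized counts in HSD17B1-KI, with a median of 11686, and between 6903 and 9093 in WT, with a median of 7981. All HSD17B1-KI mice but number 5 lay above every WT mouse. The mean was 45.7% higher in HSD17B1-KI, with a log2 fold change of 0.53 ± 0.10 (SE) and a limma-trend adjusted p of 0.0554 (0.000532 to 0.745 over the alternatives). Hadh, the dehydrogenase of medium- and short-chain hydroxyacyl-CoA, and Echs1, the short-chain hydratase, were DE with DESeq2, with log2 fold changes of 0.39 and 0.30. The mitochondrial thiolase Acaa2 (0.32) and Acaa1a (0.15), the peroxisomal thiolase whose reads may be shared with its close copy Acaa1b, were DE with neither test on all mice.

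A set of 3 enzymes prepares unsaturated chains for the cycle. Eci2, an enoyl-CoA isomerase, was between 4286 and 6158 normalized counts in HSD17B1-KI, with a median of 4766, and between 3685 and 4172 in WT, with a median of 3968. Its WT mice lay close together, with a coefficient of variation of 4.13% against 14.5% in HSD17B1-KI, and the groups did not overlap. The log2 fold change of Eci2 was 0.33 ± 0.08 (SE), with a limma-trend adjusted p of 0.091 and DE calls with DESeq2 without any 1 mouse. Decr1, the dienoyl-CoA reductase, was DE with DESeq2 too (0.20), and Eci1, another enoyl-CoA isomerase, was not (0.18, 95% interval -0.01 to 0.37). Of the proteins that pass electrons from the dehydrogenases to ubiquinone, Etfb was DE with DESeq2 (0.33), while Etfa (0.14) and the oxidoreductase Etfdh (0.12, 95% interval -0.02 to 0.27) were not. The spread of Etfb was widest through HSD17B1-KI 1, at 7545 normalized counts, as the median of its group was 5119.

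The 13 branched-chain members had a median log2 fold change of 0.22, and none had groups without overlap. In the steps shared by all 3 amino acids, Bcat2, the mitochondrial aminotransferase, was between 5032 and 10910.3 normalized counts in HSD17B1-KI, with a median of 7296, and between 4778 and 6565 in WT, with a median of 5749.5. HSD17B1-KI 1 was the highest and HSD17B1-KI 4 and 5 lay among the WT mice, and its log2 fold change of 0.40 ± 0.13 (SE) passed with neither test on all mice. Of the branched-chain ketoacid dehydrogenase, Bckdha (E1α) was DE with DESeq2 (0.26), and Bckdhb (E1β, 0.22) and Dbt (E2, 0.19) were not. Bckdhb was lowest of the HSD17B1-KI mice in number 5, at 942 normalized counts, and the 95% interval of its log2 fold change was -0.08 to 0.52.

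The acyl-CoA dehydrogenases of the branched chains act on leucine (Ivd), isoleucine (Acadsb) and valine (Acad8) products. Their log2 fold changes were 0.29, 0.33 and 0.29, and Acadsb and Acad8 were DE with DESeq2. In all 3 genes, each HSD17B1-KI mouse lay above the WT mean. Acad8 had 4943 ± 442 normalized counts in HSD17B1-KI and 4055 ± 368 in WT, and all WT mice but number 5 lay below its lowest HSD17B1-KI mouse.

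Further down the leucine branch, Mccc1 was between 2991 and 4116 normalized counts in HSD17B1-KI, with a median of 3709, and between 2616 and 3028 in WT, with a median of 2733. All HSD17B1-KI mice but number 5 lay above every WT mouse, and the WT mice varied little (4.76% coefficient of variation). The mean was 30.4% higher in HSD17B1-KI (3620.2 ± 404 normalized counts in HSD17B1-KI and 2777 ± 132 in WT), with a log2 fold change of 0.38 ± 0.07 (SE) and a limma-trend adjusted p of 0.0355 (5.03e-05 to 0.745 over the alternatives). Mccc1 stayed DE in 2 of the 15 limma-trend fits without 1 mouse, those without HSD17B1-KI 5 or 7, and lost the call without any other 1 mouse, while DESeq2 called it in all 15. Mccc2, the carboxyltransferase subunit, had a log2 fold change of 0.19 and was not DE. Auh, the hydratase after this carboxylase, had nearly equal means (2087 ± 368 normalized counts in HSD17B1-KI and 2091 ± 356 in WT). Its log2 fold change was -0.00, with a 95% interval of -0.25 to 0.24. Its sign changed with upper quartile or quantile scaling, to 0.00 in both, and Auh was highest in WT 3 and in HSD17B1-KI 4 and 5.

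In the valine branch, Hibch (0.14), Hibadh (0.13) and Aldh6a1 (0.16), which take hydroxyisobutyryl-CoA to propionyl-CoA, had a median log2 fold change of 0.14, which was also that of the electron transfer genes and the lowest of the steps. Neither limma-trend nor DESeq2 called any of the 3, and Hibadh alone had an unadjusted limma-trend p under 0.05 (0.0237). In Aldh6a1, HSD17B1-KI 4 and 6 stood apart above the other mice of both groups, and HSD17B1-KI 1 was below the WT mean.

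Propionyl-CoA from valine, isoleucine and odd-chain fatty acids is carboxylated by Pcca and Pccb, epimerised by Mcee and isomerised by the cobalamin-dependent mutase Mut. Pcca had the lowest adjusted p of the 38 members. It was between 3501 and 4441 normalized counts in HSD17B1-KI, with a median of 4247, and between 2405 and 3475 in WT, with a median of 3023, and the groups did not overlap, although HSD17B1-KI 5 and WT 5 lay close to each other. The mean was 38.1% higher in HSD17B1-KI (4118 ± 312 normalized counts in HSD17B1-KI and 2982 ± 360.0 in WT), with a log2 fold change of 0.47 ± 0.08 (SE) and a limma-trend adjusted p of 0.0276 (3.23e-05 to 0.745 over the alternatives). Pcca stayed DE without HSD17B1-KI 5 or 7 and without WT 3, 5 or 7, and lost the call in limma-trend without HSD17B1-KI 1, 2, 3, 4 or 6 and WT 1, 2, 4, 6 or 8, with DE calls in all 15 fits of DESeq2.

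Pccb was DE with DESeq2, with 4719 ± 713 normalized counts in HSD17B1-KI and 3625 ± 419 in WT and a log2 fold change of 0.38. Mut was between 4039 and 5178 normalized counts in HSD17B1-KI, with a median of 4421, and between 3493 and 4364 in WT, with a median of 3681. All HSD17B1-KI mice lay above all WT mice but number 5, and HSD17B1-KI 4 stood apart above its group. The log2 fold change of Mut was 0.24 ± 0.06 (SE), and it was DE with DESeq2. Mcee was close between the groups, with 1140.2 ± 159 normalized counts in HSD17B1-KI and 1124 ± 244 in WT, a 95% interval of its log2 fold change of -0.23 to 0.30 and its highest value in WT 1, and its sign turned on leaving out HSD17B1-KI 1 (-0.01), WT 5 (-0.00) or WT 7 (-0.00) and with the adipocyte sum as a covariate (-0.01).

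**Figure D2:**
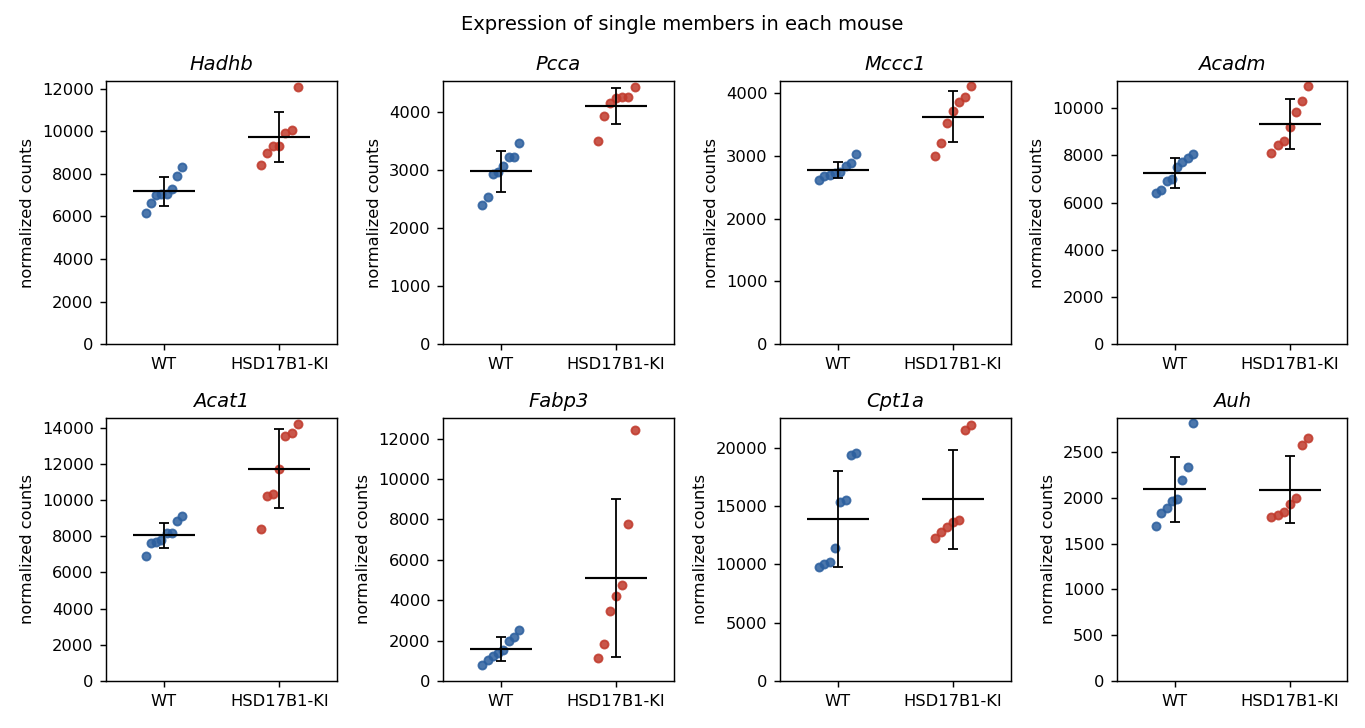
Normalized counts of 8 members in each mouse, 8 WT (blue) and 7 HSD17B1-KI (red), ordered by value within a group, with the mean as a horizontal line and the SD as error bars, on axes that start at 0. Hadhb, Pcca and Acadm show groups without overlap, Mccc1 and Acat1 have 1 HSD17B1-KI mouse in the WT range, and Fabp3, Cpt1a and Auh overlap.

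Since several enzymes are built from paired subunits, the log2 ratio of the subunits within each mouse is given for 5 pairs, chosen with their values known and so without a test. The ratio of Mccc1 to Mccc2 was 0.62 ± 0.05 in HSD17B1-KI and 0.44 ± 0.10 in WT (SD, n = 7 and 8), and 5 of the 7 HSD17B1-KI mice lay above every WT mouse. The mean log2 ratio in HSD17B1-KI minus that in WT was 0.18 for Mccc1 over Mccc2, -0.06 for Hadha over Hadhb, 0.10 for Pcca over Pccb, -0.19 for Etfa over Etfb and 0.04 for Bckdha over Bckdhb.

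Each gene's level per kilobase of exon in WT varied widely within the pathway. The length is the union of all annotated exons of a gene, such as 10952 bases for Mccc1 and 9580 for Auh. It can exceed the length of the main mRNA, which lowers the level per kilobase, so the order of the genes is approximate. The highest was that of Acaa2, at 5947 normalized counts per kilobase, followed by Etfb at 3804, Acadl at 3791 and Etfa at 3514. The lowest were Auh at 218, Hibch at 252 and Mccc1 at 254. By this measure the 3 genes that rose were not among the most abundant, with 1088 for Hadhb and 572 for Pcca. The coefficient of variation over the mice ranged from 3.51% (Acaa1a) to 38% (Fabp3) in WT and from 3.24% (Etfdh) to 76.5% (Fabp3) in HSD17B1-KI, with medians of 11.1% and 10.9%.

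A score per mouse was formed for each part as the mean over its genes of the log2 level minus that gene's mean over the 15 mice, and is given with no test because the members were chosen with results known. The fatty acid score was 0.18 ± 0.12 in HSD17B1-KI and -0.16 ± 0.08 in WT (SD, n = 7 and 8), a difference of 0.34, or of 0.28 without Fabp3. The branched-chain score was 0.12 ± 0.11 and -0.11 ± 0.05, a difference of 0.23. The propionate score was 0.15 ± 0.08 and -0.13 ± 0.07, a difference of 0.28. All 7 HSD17B1-KI mice lay above every WT mouse in the fatty acid and propionate scores, and 6 of 7 in the branched-chain score, where HSD17B1-KI 5 was at -0.06 and the highest WT mouse, number 5, at -0.02.

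**Figure D3:**
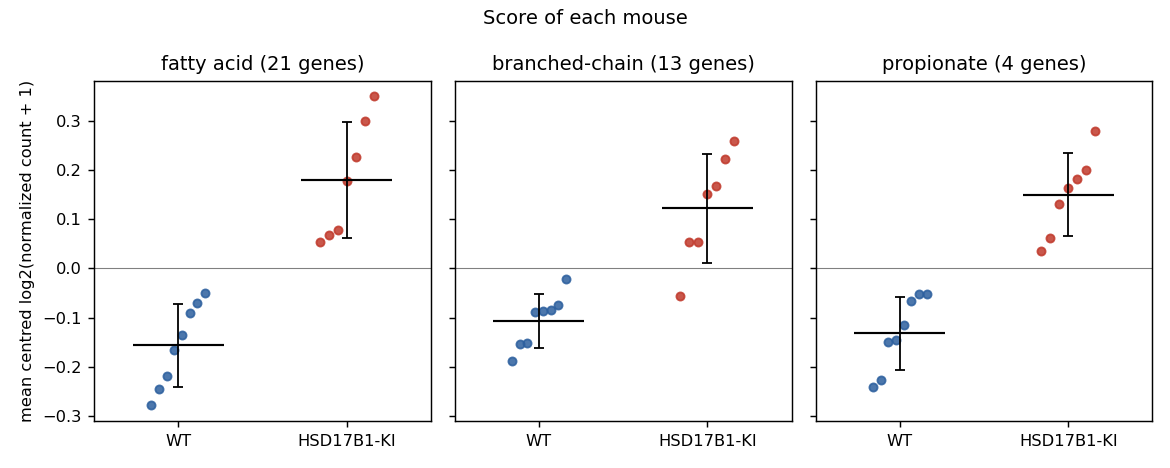
Score of each mouse for the 21 fatty acid, 13 branched-chain and 4 propionate members, as the mean centred log2(normalized count + 1), with points for WT (blue, n = 8) and HSD17B1-KI (red, n = 7), the mean as a line and the SD as error bars. The groups are apart in the fatty acid and propionate panels, and 1 HSD17B1-KI mouse lies in the WT range of the branched-chain panel.

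The mice within a genotype were not alike. HSD17B1-KI 6 had the highest value of all 15 mice for 14 members, HSD17B1-KI 1 for 11 and HSD17B1-KI 4 for 7, while HSD17B1-KI 3 and 5 were highest for none. In all, the highest value was in an HSD17B1-KI mouse for 34 members, and the lowest was in a WT mouse for all 38. WT 8 was lowest for 12 members, WT 1 for 7 and WT 6 for 6. HSD17B1-KI 4 lay above the WT mean for all 38 members, and the other HSD17B1-KI mice for 31 to 35. The counts of this paragraph were not made over all genes tested, and the members were chosen with earlier results of these mice known. They describe the mice and are not evidence about the genotypes.

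**Figure D4:**
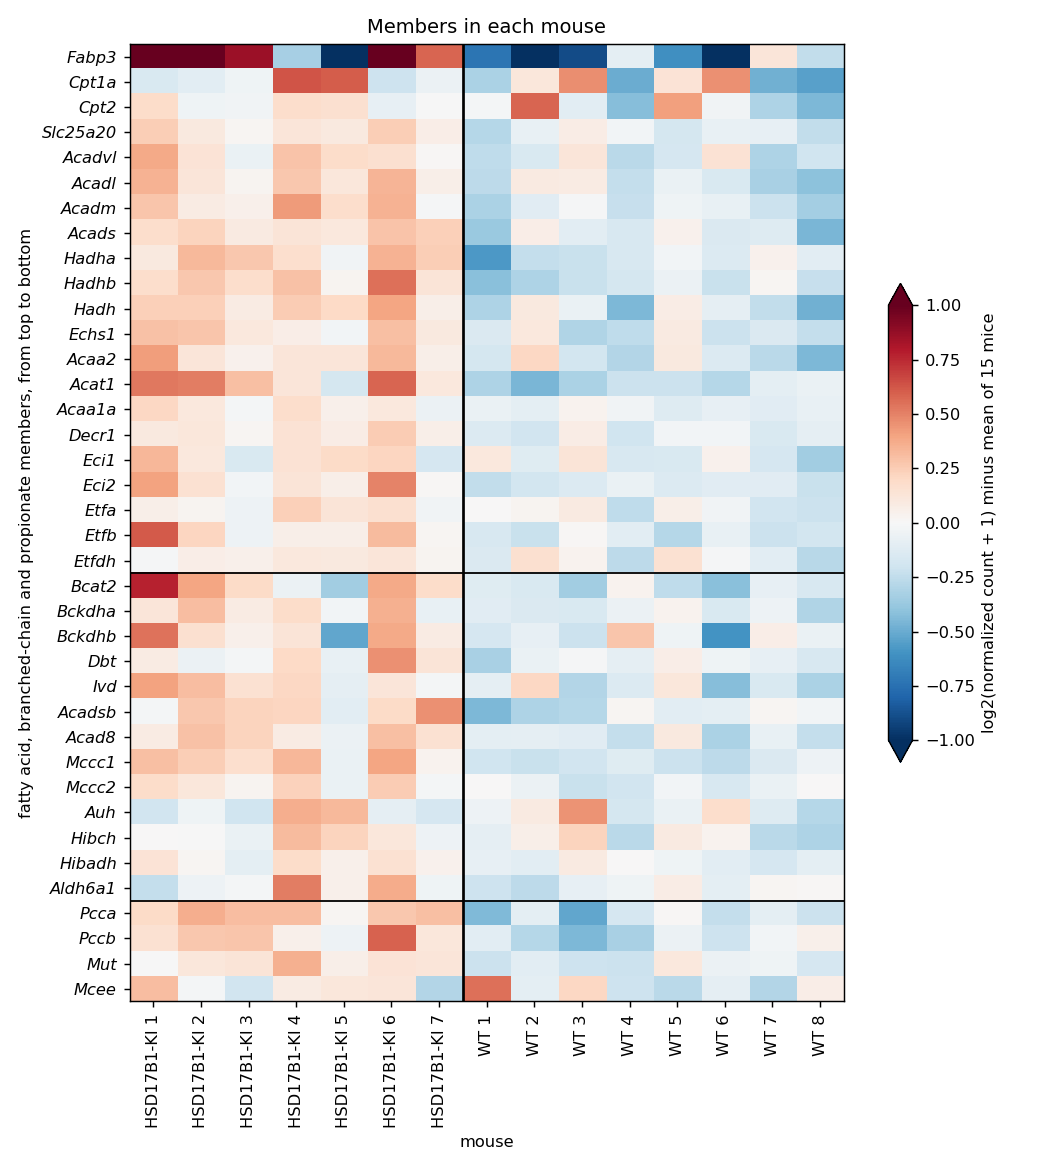
Level of each member (rows, fatty acid, branched-chain and propionate genes from top to bottom) in each mouse (columns), as log2(normalized count + 1) minus the mean of the 15 mice, from blue (lower) to red (higher), with the scale ending at -1 and 1. The 7 HSD17B1-KI columns are mostly red and the 8 WT columns mostly blue, and rows such as Cpt1a, Auh and Mcee do not follow the genotype.

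Genes around these pathways were read from lists written from textbook knowledge, with earlier results of these mice known. None of their genes was DE with limma-trend or edgeR. The 13 other genes of mitochondrial β-oxidation had a median log2 fold change of 0.11, with 0 DE in DESeq2 and 1 with an unadjusted limma-trend p under 0.05. The lowest unadjusted p-values there were those of Hsd17b10 and Slc25a29. Hsd17b10, a dehydrogenase of short hydroxyacyl chains and isoleucine breakdown, had a log2 fold change of 0.21, and the mitochondrial carrier Slc25a29 one of 0.31. Of 16 peroxisomal genes (median 0.05), Phyh, which starts phytanic acid breakdown, was DE with DESeq2 (0.40), and the racemase Amacr was not (0.32). The 14 genes of fatty acid activation and uptake had a median of -0.04, with 0 DE in DESeq2 and 1 higher and 1 lower at an unadjusted limma-trend p under 0.05. Acsl6 (log2 fold change 0.54) and Lpl (log2 fold change -0.52) had the lowest p-values. Of the fatty acid binding proteins other than Fabp3, 6 of 7 were tested, with a median of -0.01, and Fabp4, the form of adipocytes, had 1282 ± 893 normalized counts in HSD17B1-KI and 2773 ± 1127 in WT (log2 fold change -1.36, limma-trend adjusted p = 0.235). The next lowest p was that of Dbi (log2 fold change 0.24), which binds acyl-CoA.

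The 11 genes of fatty acid synthesis had a median log2 fold change of -0.04, with the desaturase Fads2 DE in DESeq2 (0.95) and Fads1 not (0.45). Among 5 ketone body and leucine end product genes (median 0.02), Bdh1 was lower in its mean and did not pass (-0.49). Of 11 genes of branched-chain regulation and entry (median 0.14), the subunits of the neutral amino acid transporter, Slc7a5 (0.76) and Slc3a2 (0.51), were DE with DESeq2. The kinase that inhibits the ketoacid dehydrogenase, Bckdk, had 0.14, and the cytosolic aminotransferase Bcat1 had -0.44, neither DE. Of 12 genes handling cobalamin and biotin, the cofactors of Mut and the carboxylases (median 0.07), Btd, which recycles biotin, was DE with DESeq2 (0.24). Lmbrd1 (log2 fold change 0.24) had the next lowest p.

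Of 16 regulators of oxidative genes (median -0.02), Nr5a1, the steroidogenic factor SF-1, was DE with DESeq2, with 25507 ± 7632 normalized counts in HSD17B1-KI and 15822 ± 3546 in WT (log2 fold change 0.66). Ppara, which drives fatty acid oxidation genes in liver, had 0.59 and its partner Rxra 0.24, neither DE. Of the 16 regulators, 8 had a positive and 8 a negative log2 fold change. The 19 genes chosen for mitochondrial mass had a median of 0.04, and 1 of them, the cristae protein Immt, was DE with DESeq2 (0.22). Its groups did not overlap, with 10766 ± 809 normalized counts in HSD17B1-KI and 9218 ± 319.9 in WT. The channel Vdac3 was not DE (0.15). By their medians alone, the surrounding lists lay between -0.04 and 0.14, below all 3 parts of the pathway described here. As members and lists were chosen with earlier results of these mice known, this order is not independent evidence, and the difference was not tested.

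**Figure D5:**
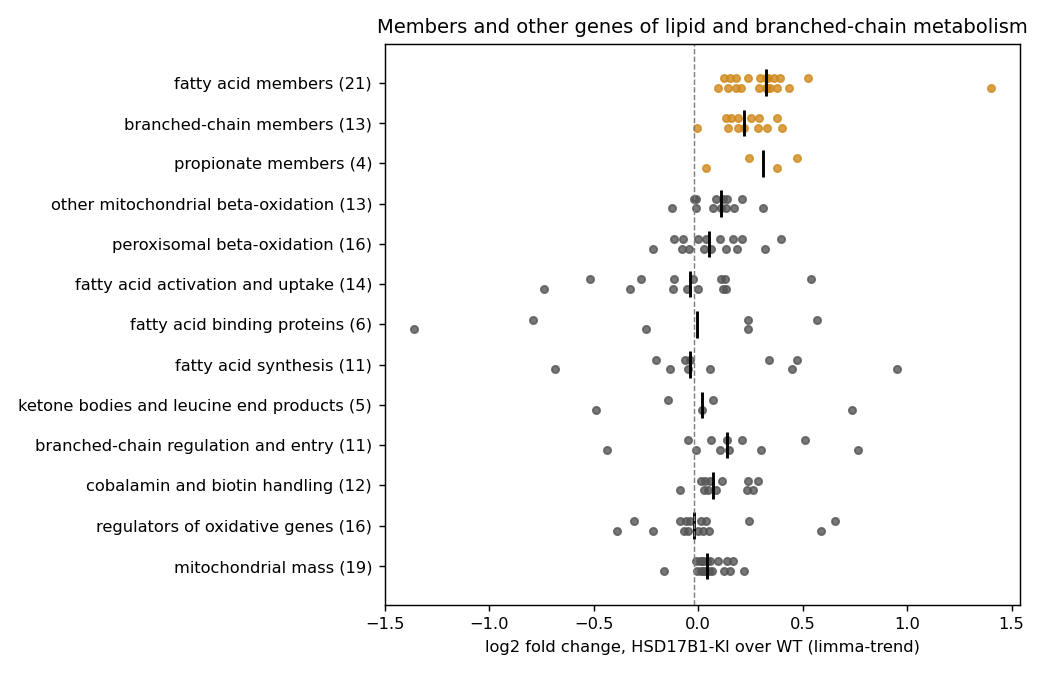
Log2 fold change of every tested gene (points) in the 3 parts of the pathway and in 10 surrounding lists, HSD17B1-KI over WT on log2(normalized count + 1), with the median of each list as a black bar, the number of genes tested in brackets and the median of all genes tested, -0.02, as a dashed line. The member parts have medians of 0.32, 0.22 and 0.31, above those of the surrounding lists, where members and lists were chosen with earlier results known.

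Markers of ovarian cell types were compared between the genotypes in the same fit. All 8 theca and interstitial markers had a positive log2 fold change (median 0.94), from 0.04 (Gli1) to 1.97 (Hsd3b6). Of these, 4 had an unadjusted limma-trend p under 0.05, and Aldh1a1 and Hsd3b6 were DE with limma-trend. The summed normalized counts of the 8 markers ranged from 192842 to 377387 in HSD17B1-KI and 135552 to 208973 in WT. HSD17B1-KI 5 had the lowest of these sums in its group, at 192842, within the WT range. The other 6 HSD17B1-KI mice lay between 309919 and 377387. HSD17B1-KI 5 also had the lowest fatty acid, branched-chain and propionate scores of its group. Its macrophage, endothelium, smooth muscle and stroma sums were the highest of all 15 mice. HSD17B1-KI 7 had a similar fatty acid score (0.07 against 0.05) with a theca and interstitial sum of 309919. Of the 8 markers, Aldh1a1 had the highest mean, at 219462 in HSD17B1-KI and 107842 in WT. Cyp17a1, which defines the list, was between 224 and 56551 in HSD17B1-KI and between 107 and 21605 in WT. It was not DE (log2 fold change 1.88, adjusted p = 0.734 with limma-trend and 0.36 with DESeq2). The part of these cells in the members' values was not tested.

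Of 10 luteal markers, 9 had positive log2 fold changes (sums of 670396 to 1080817 in HSD17B1-KI and 427211 to 1069474 in WT), as had 8 of 10 granulosa markers (sums of 103118 to 293212 in HSD17B1-KI and 131499 to 274797 in WT), with Lhcgr in both the luteal and the theca list. In the luteal list Hsd3b1 and Cyp11a1 had the highest means, at 384249 and 342309 in HSD17B1-KI and 341018 and 272914 in WT. These 2 genes weigh most in its sums. None of the luteal and granulosa markers was DE with limma-trend, edgeR or DESeq2, and 1 luteal and 0 granulosa markers had an unadjusted limma-trend p under 0.05. Oocyte markers, 8 of 10 positive, summed to 9834 to 16320.2 in HSD17B1-KI and 11067 to 18360.3 in WT, so that markers of the labelled tissue were present in every library. Negative log2 fold changes were found for 10 of 10 oviduct (led by Ovgp1 at -1.96), 9 of 10 adipocyte (Adipoq at -1.82, with 8 at an unadjusted limma-trend p under 0.05), 8 of 8 smooth muscle (sums of 43963 to 90685 in HSD17B1-KI and 52974 to 89369 in WT) and 8 of 8 surface epithelium markers (sums of 12952 to 19779 in HSD17B1-KI and 15414 to 40966 in WT). The other adipocyte marker, Plin1, was higher in HSD17B1-KI (log2 fold change 0.44) and met the same unadjusted threshold in that direction. The adipocyte marker Pnpla3 (-1.50) was lower and DE with DESeq2. The remaining lists had median log2 fold changes of 0.12 for macrophages (sums of 19453 to 46380.1 in HSD17B1-KI and 22080.3 to 37515 in WT), 0.04 for endothelium (sums of 25397 to 33808 in HSD17B1-KI and 22853 to 31539 in WT), -0.03 for stroma (sums of 96961 to 274184 in HSD17B1-KI and 118378 to 239745 in WT) and 0.21 for erythroid cells (sums of 1453 to 2516 in HSD17B1-KI and 1148 to 4412 in WT). The defining genes of brown adipocytes and striated muscle are Ucp1 and Acta1. Ucp1 was between 0 and 3.66 normalized counts and Acta1 between 2.07 and 50.9, with the highest Acta1 value in WT. The brown adipocyte list summed to 836 to 1145 in HSD17B1-KI and 601 to 1491 in WT, with a median log2 fold change of -0.15, and the striated muscle list to 323 to 563 in HSD17B1-KI and 275 to 643 in WT, with -0.23. Of the 7 brown adipocyte markers tested, 3 had positive and 4 negative log2 fold changes, and Cox7a1 (0.67) and Otop1 (1.45) were higher and 0 lower at an unadjusted limma-trend p under 0.05. Of the 9 striated muscle markers tested, 2 were positive (Myh6 at 0.76 and Ckm at 0.49) and 7 negative, and Acta1 (-1.36) and Myl7 (-1.21) were lower and 0 higher at an unadjusted limma-trend p under 0.05. The part of these cell types in the members' values was not tested.

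Without the 7 libraries with an oviduct sum above 10000 (HSD17B1-KI 1 and 3, WT 1, 2, 4, 7 and 8), 35 of 38 members had a positive log2 fold change, against 50.5% of all genes tested there. An unadjusted p under 0.05 with a higher level in HSD17B1-KI was found for 18 members and 3.71% of all genes. The score differences were then 0.25 for fatty acid, 0.23 for branched-chain and 0.30 for propionate genes. Without the 4 WT libraries with an adipocyte sum above 20000 (WT 1, 2, 5 and 7), 37 members were positive, against 46.1% of all genes, and 26 were higher at an unadjusted p under 0.05, against 3.92%. The score differences were 0.35, 0.25 and 0.32. With the adipocyte sum of each mouse as a covariate, 36 members were positive, against 46.0% of all genes, and 26 were higher at an unadjusted p under 0.05, against 3.2%. In these 3 fits 0 members were DE with limma-trend, as were 0 of all genes (0.0%). With the oviduct sum as a covariate 37 members were positive, against 47.2% of all genes, and 26 were higher at an unadjusted p under 0.05, against 5.48%. In that fit 3 members were DE, all higher, against 0.167% of all genes that were DE and higher. They were not the same 3 as in the main fit, as 1 lost its call and 1 other passed newly. These choices were made after seeing the data.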

How the data were processed

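Ovarian mRNA of 7 HSD17B1-KI and 8 WT mice was sequenced from stranded libraries, 1 per mouse. The authors converted base calls with bcl2fastq 2.20, trimmed the reads with Skewer and aligned them with STAR 2.7.3 to mm10 (GRCm38). The counting program and the annotation are not given in the sources used here. They deposited 1 table of normalized counts, a signal made of reads per gene divided by a size factor per library. For 100% of its values, whole reads were recovered within 0.01 reads, and edgeR and DESeq2 were run on them. Libraries held 26544745 to 72362981 reads.

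From there, limma-trend with genotype as the only term was fitted on log2(normalized count + 1) for the 21525 genes whose normalized counts averaged 2 or more, with two-sided p-values and Benjamini-Hochberg adjustment at 0.05. The pseudocount of 1 slightly understates fold changes of low genes. Alternatives were edgeR, DESeq2, leaving out each mouse, array weights, quantile normalization, upper quartile scaling, a replicate block, pseudocounts of 0.1 and 10, filters at 0 and at a mean of 10, and a threshold of 0.1 on the adjusted p. Marker sums as covariates and leaving out libraries by their oviduct or adipocyte sum were added after seeing the data. Ranges of an adjusted p leave out the replicate block and the DESeq2 fits without 1 mouse. The members and all lists were chosen with earlier results of these data known. The text names all members. Of each surrounding list it names the genes that passed and some others, mostly those with the lowest p, though Bckdk was not among these. The result of 1 gene of these lists is not reported here. The marker lists were for luteal, theca and interstitial, granulosa, oviduct, adipocyte, brown adipocyte, striated muscle, macrophage, endothelial, smooth muscle, stroma, surface epithelium, erythroid and oocyte genes. The scripts were tested on simulated data. Of 27907 identifiers, 27533 had a position in GENCODE release M21. Labels do not give litters, and p-values measure the spread between these mice. Models were fitted in R 4.3.3 with DESeq2 1.42.0, limma 3.58.1 and edgeR 4.0.16, and summaries were made in Python 3.11.15 with pandas 2.3.3 and NumPy 2.4.6.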

Additional observations from a re-analysis of the deposited data

Results flagged for a closer look

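Among 82 groups of values tested, which were the members and scores in each genotype, 1 had a mouse far from the others, while chance alone gives about 1 in 20 groups. Mut, the methylmalonyl-CoA mutase, was 5178 normalized counts in HSD17B1-KI 4, and the other 6 HSD17B1-KI mice lay between 4039 and 4453. Its gap to the nearest mouse was 0.637 of the range of the group.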

How the results depend on the processing

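The number of DE genes moved with the test more than the fold changes did. Of 1102 alternative values of the members' log2 fold changes, 1011 kept direction and side of the threshold, 26 passed it newly, 48 no longer passed and 17 reversed. Only the 3 members DE in the main fit (Hadhb, Mccc1 and Pcca) could lose a call, so all 48 are theirs. Most of the 1011 belong to members that were not DE in either fit. No scaling moved the median of all genes tested by more than 0.1. The 46 DE genes, 3 of them members, became 28 and 3 with no filter, 28 and 1 with quantile normalization, 125 and 6 with array weights, 71 and 4 with edgeR, 456 and 20 with DESeq2 and 146 and 9 at an adjusted p under 0.1. Leaving out 1 mouse gave as few as 6 DE genes (HSD17B1-KI 2 left out) and as many as 139 (HSD17B1-KI 5 left out), and the members among them ranged from 0 to 6. With limma-trend they were 0 and 0 without the libraries of high oviduct sum, without those of high adipocyte sum and with the adipocyte sum as a covariate, where 18, 26 and 26 members had an unadjusted p under 0.05, and fewer mice were fitted in the first 2. The fit with the covariate kept all mice, and why the calls were lost was not tested.

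Replicate numbers did not pair the mice: over 7 pairs the correlation of deviations ranged from -0.55 to 0.55, and 1 of 7 HSD17B1-KI mice correlated best with its own number. The replicate block gave 0 DE genes and 0 members, with 26 members at an unadjusted p under 0.05.

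Members that reversed were Cpt1a (-0.177 without the libraries of high oviduct sum), Cpt2 (-0.0504 in that setting and -0.0223 with array weights), Auh (0.00112 with upper quartile scaling, 0.00288 with quantile normalization and -0.0642 to 0.0599 without 1 mouse) and Mcee (-0.0106 with the adipocyte sum as a covariate and -0.0137 to 0.117 without 1 mouse). As a mean z-score of each member, the branched-chain difference was 1.09 and the propionate difference 1.17, on another scale than the log2 scores.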
